A study of Mus musculus with 614 samples.

Results

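SiglecH+Ly6C- pre-DC are one of the surface-marker gates into which dendritic cell precursors (pre-DC) of mouse bone marrow were sorted, and 70 of the 614 single cells of the study carry that label. The cells were chosen by the label alone, with no measured value. They were negative for lineage markers, MHC class II, CD172α, B220 and Ly6C, and positive for CD11c, Flt3 and SiglecH. By the numbers of their libraries 51 of the 70 cells lie in a first run and 19 in a second. All cells of the study came from untreated adult C57BL/6J mice aged 7 to 10 weeks. Each cell was captured on a microfluidic chip, its messenger RNA was copied from the poly(A) tail and amplified there, and only cells with high-quality cDNA were made into libraries.

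The gate was set against SiglecH+Ly6C+ pre-DC (45 cells), which are sorted alike except for being Ly6C positive and share the first run, and against SiglecH-Ly6C- pre-DC (70 cells), which lack SiglecH and share the second run. It was further set against bone marrow plasmacytoid dendritic cells (pDC), 27 cells sorted as lineage negative, B220 positive and SiglecH positive in other runs, and against the mean of all 11 other gates. Those are, besides the 3 just named, SiglecH-Ly6C+ pre-DC, blood pre-DC, pre-pro-B cells, CLP, CDP, LMPP, GMP and cMoP. No label names an animal or a pool, so a gate counts as 1 sample. There was therefore no test between gates or runs and no p-value, and every SD is over cells. Replicate cells show only how cells of 1 sort vary.

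Plasmacytoid dendritic cells are the main producers of type I interferon on sensing viral nucleic acids. Their identity depends on the E protein Tcf4 (E2-2), with Irf8, Runx2, Spib and Bcl11a as further factors, and is opposed by Id2, an inhibitor of E proteins that marks conventional dendritic cells (cDC). Their secretory machinery is large, and in mice they carry SiglecH, Bst2 (the antigen of the PDCA-1 antibody) and, when mature in marrow, B220 and Ccr9. Ly6d marks lymphoid progenitors of mouse marrow that have entered a B cell or pDC path.

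Values are TPM, a share of a cell's transcripts scaled for transcript length and to a fixed total. They hold no read counts and the depth is unknown. As a stand-in, the count of genes at or above 1 TPM ran from 3246 to 6596 in the gate (median 5031 in the first run and 4812 in the second), within 1001 to 9977 over all cells, and mitochondrial transcripts took 0.669 to 12.6% of the gate's TPM. A level below is an average of log2(TPM + 1) over cells, given with the SD over those cells, and a difference is between such averages. Genes compared reached 1 TPM in 20% or more of the cells on either side, and a gene is past the fold where the means differ by 2 or more (4-fold). Y-linked transcripts without Xist were seen in 63 of the 70 cells, both kinds in 3, neither in 4 and Xist alone in 0.

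The promoters of 4 gate markers are shown because these genes are markers of the gate with a window in the table and because Tcf4 and Runx2, 2 of its highest regulators, belong to families that bind E-boxes and the Runx motif. The sequences are RefSeq windows on GRCm38.p6 from 250 bases before to 50 bases after the start, 5′ to 3′ on the gene's strand. Capitals mark the motifs searched on both strands, which were the E-box CAGCTG, the E-box CACCTG with its other strand, read as CAGGTG, and the Runx motif TGTGGT with its other strand, read as ACCACA. The windows are chr7:55767934-55768233 (plus strand) for Siglech, chr17:44814578-44814877 (minus) for Runx2, chr19:40994172-40994471 (minus) for Blnk and chr8:71537423-71537722 (minus) for Bst2.
Siglech: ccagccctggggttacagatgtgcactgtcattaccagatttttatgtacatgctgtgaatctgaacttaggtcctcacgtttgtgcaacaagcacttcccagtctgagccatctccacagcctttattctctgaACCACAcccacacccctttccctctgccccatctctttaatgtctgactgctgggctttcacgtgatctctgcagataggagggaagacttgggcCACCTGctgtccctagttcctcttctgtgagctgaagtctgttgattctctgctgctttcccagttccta
Runx2: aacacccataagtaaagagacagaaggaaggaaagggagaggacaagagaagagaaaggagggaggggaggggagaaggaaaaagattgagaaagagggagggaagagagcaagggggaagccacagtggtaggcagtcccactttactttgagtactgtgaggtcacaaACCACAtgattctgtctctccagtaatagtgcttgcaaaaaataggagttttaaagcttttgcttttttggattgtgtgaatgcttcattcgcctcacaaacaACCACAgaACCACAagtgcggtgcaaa
Blnk: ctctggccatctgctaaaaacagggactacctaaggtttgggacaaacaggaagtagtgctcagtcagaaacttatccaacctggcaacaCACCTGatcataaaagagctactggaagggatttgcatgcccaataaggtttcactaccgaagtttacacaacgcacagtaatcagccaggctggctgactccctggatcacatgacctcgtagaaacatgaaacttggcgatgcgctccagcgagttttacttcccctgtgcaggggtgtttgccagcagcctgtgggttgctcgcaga
Bst2: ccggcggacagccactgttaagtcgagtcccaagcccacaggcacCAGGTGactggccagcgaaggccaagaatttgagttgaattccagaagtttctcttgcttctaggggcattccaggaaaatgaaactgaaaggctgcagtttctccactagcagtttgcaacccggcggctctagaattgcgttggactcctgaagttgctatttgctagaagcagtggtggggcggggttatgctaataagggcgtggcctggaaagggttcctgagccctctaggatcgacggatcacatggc
Siglech held a CACCTG 20 bases before the start and an ACCACA 115 bases before it. Runx2 held 3 copies of ACCACA, 80 bases before the start and 24 and 32 bases into the transcript. Blnk held a CACCTG 160 bases and Bst2 a CAGGTG 205 bases before the start, and the window of Sdc4 held none of these letters. Of all 32851 promoter windows 16.3% held the first E-box, 20.2% the second and 16.8% the Runx motif on either strand. The table had windows for 5 of the 9 markers, and a match describes letters only.

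All 9 markers of the pDC path were at 1 TPM or more in 75.7% to 98.6% of the cells of the gate. These markers were chosen with earlier results of these data known. Their presence here, or excess over other gates, therefore describes the gate and does not test its label. Siglech, which encodes the positive sort marker, reached 1 TPM in 69 of 70 cells, and Flt3, the receptor that supports dendritic precursors, in 60 of 70. Itgax, which encodes CD11c, was at that level in 36 of 70 cells. Transcripts of proteins that the sort excluded were also present. Sirpa, which encodes CD172α, reached 1 TPM in 31 of 70 cells. Ly6c2, one of the genes for Ly6C, had a level of 5.38 ± 4.22 and was at 100 TPM or more in 35 of 70 cells. It was at that level in 54.9% of the first run, which shares its run with SiglecH+Ly6C+ pre-DC (level 11.28), and in 36.8% of the second. The part of the shared run in this was not tested.

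Ly6d was the marker with the highest level in the gate, at 10.80 ± 3.59 (SD, n = 70 cells). Its lowest, median and highest values were 6.32, 4762 and 16966 TPM in the first run, against 0, 5044 and 23429 TPM in the second. Medians of the runs were close, but 3 of 19 cells of the second run were below 1 TPM and 0 of 51 of the first, which put the means at 11.29 and 9.49. Ly6d lies at chr15:74762056-74763620 on GRCm38.

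Siglech, a sialic-acid-binding receptor of pDC and their precursors (chr7:55768178-55778925), was at 9.41 ± 2.52. It ranged from 0.72 over a median of 1292 to 4253 TPM in the first run, against 1.34, 933 and 4865 TPM in the second. Tcf4, the E protein that sets pDC identity, was the most even of the 9 over cells at 9.29 ± 1.78, and 66 of 70 cells held 100 TPM or more. Its values were 50, 800 and 3263 TPM in the first run, against 0.74, 687 and 2464 TPM in the second. Runx2 (chr17:44495987-44814797), a Runx factor with a role in the exit of pDC from marrow, was at 7.92 ± 2.14, with medians of 398 and 243 TPM in the first and second run.

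Cd7, a surface protein of lymphoid cells, was at 8.96 ± 2.59 and lay slightly lower in the first run (8.89) than in the second (9.15). Bst2, the interferon-inducible tetherin, was at 7.62 ± 2.88, with 55 of 70 cells at 100 TPM or more. Sdc4, a heparan sulfate proteoglycan, was at 6.63 ± 3.52, with 49 cells at that level.

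Cox6a2, a subunit of cytochrome c oxidase found in heart and skeletal muscle and in pDC, split the cells most. It was at 100 TPM or more in 46 cells and below 1 TPM in 17, and its level was 7.02 ± 4.52. Blnk, the adaptor of B cell receptor signalling, was the lowest marker at 5.02 ± 3.89. Its median was 45.7 TPM in the first run and 20.7 TPM in the second, and 27 of 70 cells held 100 TPM or more.

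**Figure D1:**
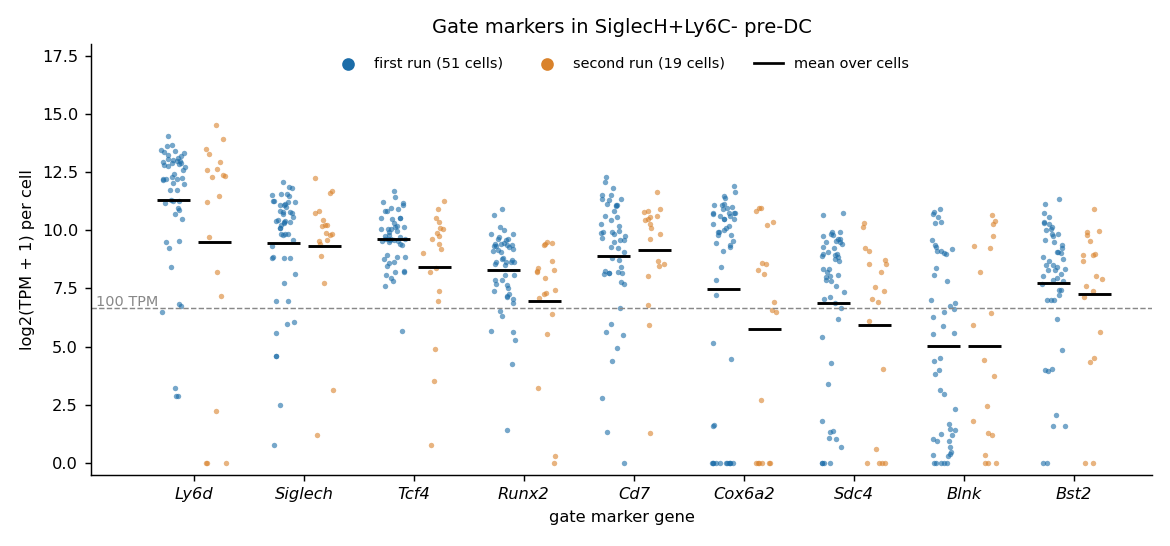
Level of the 9 gate markers in each cell of SiglecH+Ly6C- pre-DC, as log2(TPM + 1), with the first run (51 cells) left of the second (19 cells). Points are cells, bars are means over cells and the line marks 100 TPM. Tcf4 sits above the line in 66 of 70 cells, and Cox6a2 divides into 46 cells above the line and 17 below 1 TPM.

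In a single cell a median of 7 of the 9 markers were at 100 TPM or more (lowest 1, highest 9), in each run alike. All 9 were at that level in 11 of 70 cells (15.7%, exact Clopper-Pearson 95% interval 8.11 to 26.4), 7 or more in 49 (70%, 57.9 to 80.4) and 5 or fewer in 14 (20%, 11.4 to 31.3). Intervals cover counting error only. By run 7 or more were found in 72.5% of first-run cells and 63.2% of second-run cells. The median was 4 in SiglecH+Ly6C+ pre-DC, where 0 of 45 cells held all 9, and 0 in SiglecH-Ly6C- pre-DC. In pDC and in pre-pro-B cells the median was 7, as in the gate.

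Ly6d, Siglech, Tcf4 and Irf8 were jointly at 100 TPM or more in 53 of 70 cells (75.7%, interval 64 to 85.2), where the product of the single shares gives 70.7%. The joint share was 80.4% in the first run and 63.2% in the second. Over all 70 cells markers were only loosely tied to each other from cell to cell, and the runs differed in this. Over the 36 pairs Spearman's rho ran from -0.11 to 0.48 with a median of 0.17 (n = 70 cells, which share amplification and depth, so these are descriptions). The median was 0.09 in the first run and 0.33 in the second. Cd7 with Cox6a2, for example, was at -0.22 in the first run and 0.50 in the second. The 4 pairs with a rho over 0.3 in both runs were Siglech with Blnk (0.48), Ly6d with Sdc4 (0.47), Cox6a2 with Sdc4 (0.44) and Ly6d with Cox6a2 (0.42).

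Of the transcription factors of the pDC path, Irf8 and Tcf4 were the highest in the gate. Of 15 listed regulators, 12 reached 1 TPM in 50% or more of the cells, and the gate had the highest mean of the 12 gates for Runx2, Bcl11a, Ikzf1 and Tcf12. Irf8, needed for pDC and for one cDC lineage, was at 9.85 ± 1.53, between 0.53 and 3547 TPM with a median of 1113 TPM, and 68 of 70 cells held 100 TPM or more. Tcf4 and Irf8 jointly reached 100 TPM in 92.9% of cells (interval 84.1 to 97.6), in 98% of the first run (89.6 to 100) and 78.9% of the second (54.4 to 93.9). Bcl11a, which maintains Tcf4 expression, was at 6.82 ± 2.51, and Ikzf1, the lymphoid factor Ikaros, at 6.09 ± 2.59. Spib, the Ets factor of pDC and B cells, was at 4.47 ± 3.33, with only 25 of 70 cells at 100 TPM or more. Irf7, the interferon response amplifier, was at 2.13 ± 3.52 with a median of 0 TPM, and Spi1, which encodes the myeloid factor PU.1, at 0.89 ± 2.15. The nearest gates in that order did not differ from it beyond the spread over cells. For Runx2 they were pDC (7.72 ± 2.43) and pre-pro-B cells (7.72), and for Bcl11a SiglecH+Ly6C+ pre-DC (6.49 ± 2.78).

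**Figure D2:**
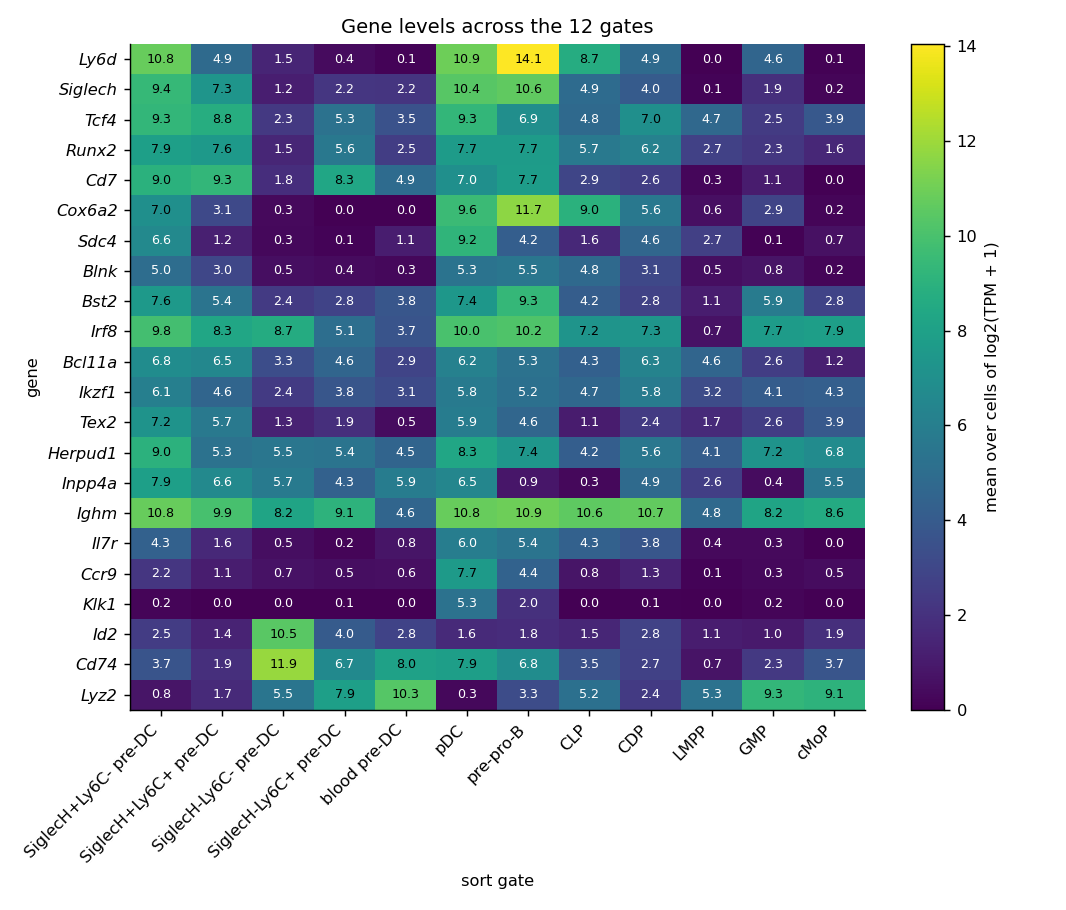
Mean over cells of log2(TPM + 1) for 22 genes (rows) in the 12 sort gates (columns), SiglecH+Ly6C- pre-DC leftmost. Tcf4 is at 9.3 in both the gate and pDC, Cox6a2 at 7.0 in the gate and 9.6 in pDC, and Ccr9 at 2.2 and 7.7.

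Surface genes of mature pDC were divided in the gate, with Tspan13 and Cd300c at higher levels than Ccr9. Of 20 listed genes 12 reached 1 TPM in 50% or more of the cells. Tspan13, a tetraspanin, was at 5.73 ± 3.20, Cd300c, a receptor of the CD300 family, at 5.48 ± 3.86, and Ptprs, a receptor phosphatase of pDC, at 5.14 ± 2.42. Ccr9, the chemokine receptor of mature marrow pDC, was at 2.20 ± 2.72, and 5 of 70 cells held 100 TPM or more. Klra17 (0.48), Cd4 (0.34) and Cd8a (0.18), which further mark pDC or their subsets, were near 0.

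Genes of the endolysosome, of metabolism and of transport were widely present, 12 of 15 reaching 1 TPM in 50% or more of the cells. Plac8, whose product is found in pDC and other leukocytes, was at 11.35 ± 1.25, from 38.6 over a median of 3088 to 8888 TPM, with a smaller SD than any gate marker. Rnase6, a ribonuclease, was at 8.37 ± 2.03 and present in all 70 cells. Tfrc, the transferrin receptor, was at 7.56 ± 3.24, Pld4, a lysosomal exonuclease, at 7.29 ± 3.23, and Cybb, the catalytic subunit of the phagocyte oxidase, at 6.12 ± 3.67. Klk1, a kallikrein, was at 1 TPM or more in 2 of 70 cells, and Pltp, a phospholipid transfer protein, in 6.

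The nucleic acid sensing pathway was represented by its trafficking factor more than by its receptors. Unc93b1, which carries the endosomal Toll-like receptors out of the endoplasmic reticulum, was at 7.57 ± 2.33, with 48 of 70 cells at 100 TPM or more. Tlr7, the receptor of single-stranded RNA, was at 1 TPM or more in 12 cells and Tlr9, that of CpG DNA, in 8. Myd88, their adaptor, was at 1.64 in the first run and 4.07 in the second.

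Several genes of the endoplasmic reticulum were abundant, but most of the list was not led by the gate. Of 16 listed genes 11 reached 1 TPM in 50% or more of the cells. Herpud1, a factor of protein degradation in that organelle, was at 9.03 ± 2.99 (1.16, 1169 and 6049 TPM) and had its highest mean of the 12 gates here. The chaperone Hsp90b1 was at 9.03 ± 1.61, the chaperone Hspa5 (BiP) at 8.13 ± 2.46 and the translocon subunit Sec61b at 7.64 ± 2.22. Xbp1, the secretory transcription factor, was at 3.58 ± 3.33, and 5 gates had a higher mean.

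Several early lymphoid genes were present, while most of the B cell genes named here were at or near 0. Ighm, the immunoglobulin mu constant gene, was at 10.81 ± 1.38, from 37.5 over 2141 to 9889 TPM. Ptprcap, a CD45-associated protein of lymphocytes, was at 6.45 ± 3.21. Il7r, the interleukin-7 receptor, was at 1 TPM or more in 54 and at 100 TPM or more in 21 of 70 cells, and Dntt, the terminal transferase of early lymphocytes, in 25 and 13. Il7r and Dntt jointly reached 100 TPM in 6 cells (8.57%, interval 3.21 to 17.7), where the product of their shares is 5.57%. Rag1, the recombinase, reached 1 TPM in 0 of 70 cells, a count that still allows up to 4.29% of cells at that level by 3 counts (5.13% by the exact interval) and sets no limit on cells that express the gene. Pax5, Vpreb1, Vpreb3 and Pou2af1 were listed at 0 in all 70 cells, and Ebf1 reached at most 3.08 TPM. Blk, a Src-family kinase of B cells and pDC, was at 100 TPM or more in 12 cells. Cd79b, a signalling chain of the B cell receptor, was at 1.81 ± 3.33, at 1 TPM or more in 24 cells and at 100 TPM or more in 9, with a highest value of 2129 TPM.

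Other cell types were checked by their own genes. In the gate 7 of 12 granule genes of the neutrophil path were listed at 0, among them Elane, Ctsg and Cebpe, and 7 of 8 erythroid, 4 of 5 platelet, 5 of 5 basophil and mast cell and 4 of 5 macrophage genes. Fewer were at 0 among T and NK cell genes (3 of 7) and plasma cell genes (0 of 3). The summed TPM of these lists had medians of 1.54 and 0.75 and highest values of 1002 and 1801. Cd3d reached 1 TPM in 36 of 70 cells, at most 21.1 TPM, and had its highest mean of the 12 gates here. Of the monocyte genes Fcgr1 was listed at 0, and Lyz2, the lysozyme, was at 100 TPM or more in 3 of 70 cells. Ly86, the MD-1 partner of RP105, was at 8.26 ± 2.71 and Ms4a6c at 5.98 ± 3.70, so single genes of that list were abundant.

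MHC class II genes were at 0 or low in most cells and very high in a few. Cd74, the invariant chain, had a median of 5.66 TPM and a highest value of 19105 TPM. It was at 1000 TPM or more, a limit picked with the values in view, in 6 of 70 cells (8.57%, interval 3.21 to 17.7), 3 in each run, and the next highest cell held 986 TPM. These 6 cells carried 94.1% of the gate's summed Cd74, 94.9% of H2-Aa, 97.1% of H2-Ab1 and 92.9% of H2-Eb1, the alpha and beta chains of the class II molecule, and 65% of Id2. They carried 0.864% of the summed Ly6d. H2-DMa, which loads peptide on class II and was at 7.62 ± 3.21 in the gate, was not concentrated in them, at 14.9% of its sum.

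The 6 cells were unlike each other. The cell with 19105 TPM of Cd74 had 4 of the 9 markers at 100 TPM or more and 3416 TPM of Cd209a, a lectin of some cDC and precursors. A cell with 14232 TPM of Cd74 had 2 markers, 1486 TPM of Cd209a and 0.53 TPM of Irf8. The next, at 10767 TPM, had 2 markers, 931 TPM of Id2 and 641 TPM of Batf3, a factor of cross-presenting cDC. At 3876 TPM of Cd74 one cell had 1 marker, 3592 TPM of Id2, 485 TPM of Batf3 and 0.74 TPM of Tcf4. The remaining cells had 5 markers (6642 TPM of Cd74, 664 TPM of Tcf4, 912 TPM of Id2) and all 9 (3248 TPM of Cd74, 2819 TPM of Ly6d, 2464 TPM of Tcf4 and 4.39 TPM of Id2). The sort took cells without MHC class II protein, and whether these are other cells in the gate, doublets or cells of the pDC path was not tested.

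**Figure D3:**
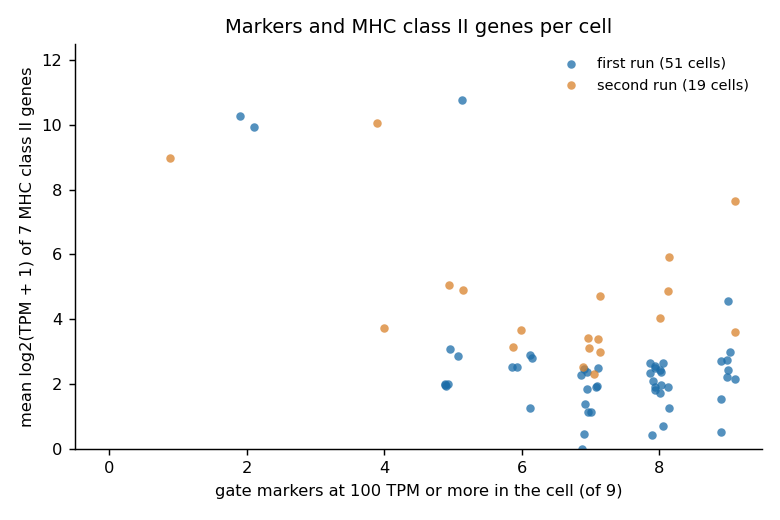
Each point is a cell of SiglecH+Ly6C- pre-DC, with the number of the 9 gate markers at 100 TPM or more on the x axis (shifted slightly sideways to separate points) and the mean log2(TPM + 1) of 7 MHC class II genes on the y axis, coloured by run. Of the 6 cells at 1000 TPM or more of Cd74, 5 have 1 to 5 markers and 1 has all 9.

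Id2 at 100 TPM or more occurred in 13 of 70 cells, and 12 of them also held Tcf4 at that level (17.1% of cells, interval 9.18 to 28, where the product of shares gives 17.5%). Other cDC genes were sparse, with Batf3 at 100 TPM or more in 2 cells, Clec9a in 4 and Zbtb46 in 0. Across the 70 cells the mean of the pDC lists and that of the cDC list had a Spearman rho of -0.38 (-0.34 in the first run and -0.39 in the second), a description of cells that share depth. Without the 6 cells rich in Cd74 the rho was -0.26, so it rests in part on them. The pDC and early lymphoid means had a rho of 0.36 (0.35 and 0.36), which was 0.21 without those cells. The pDC and MHC class II means had a rho of -0.23 over the 70 cells (-0.17 in the first run and -0.02 in the second). With a rho under 0.3 in size in each run, no relation by rank was found. Pearson's r was -0.50 (-0.53 and -0.41). The 6 cells rich in Cd74 had the highest class II means (7.65 to 10.78), and their part in this r was not tested.

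Cell cycle genes were high in part of the gate. At least 8 of 15 S phase genes were at 100 TPM or more in 16 of 70 cells (22.9%, interval 13.7 to 34.4) and at least 9 of 17 G2/M genes in 12 (17.1%, 9.18 to 28), while 1 cell met both criteria. At most 2 genes of each list were at that level in 19 cells (27.1%, 17.2 to 39.1). By run the S phase share was 19.6% in the first and 31.6% in the second, and the G2/M share 17.6% and 15.8%, with overlapping intervals. In pDC 3 of 27 cells met the S phase criterion and 0 of 27 the G2/M one, and 70.4% (49.8 to 86.2) had at most 2 genes of each list. The S phase mean followed the number of genes detected per cell with a rho of 0.54 (0.53 in the first run and 0.51 in the second), and the G2/M mean with 0.52 (0.50 and 0.64), so depth and cycle cannot be told apart here.

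Between the 2 runs of the gate few genes of any kind differed by 4-fold or more. The markers were mostly higher in the first run, and MHC class II genes were lower in the first run. Of 9624 genes compared, 26 (0.27%) were higher in the first run by 2 or more and 56 (0.582%) lower, and the median difference was 0.02. With the log2 of the mean TPM over cells the balance turned, with 747 genes higher and 377 lower. Across genes the run means had a Pearson r of 0.94 and a Spearman rho of 0.86 (genes are not independent). None of the 9 markers, 14 regulators, 15 surface genes, 13 enzyme and transport genes or 16 endoplasmic reticulum genes compared was past the fold. With so few of all genes past it, this does not set these lists apart. Of 10 sensing genes 9 were above 0 (median 0.55) and Myd88 was lower past the fold. The 9 markers had a median difference of 0.97, with 7 of 9 higher in the first run, led by Ly6d (1.80), Cox6a2 (1.72) and Runx2 (1.33). Only Cd7 (-0.26) and Blnk (-0.01) were below 0.

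**Figure D4:**
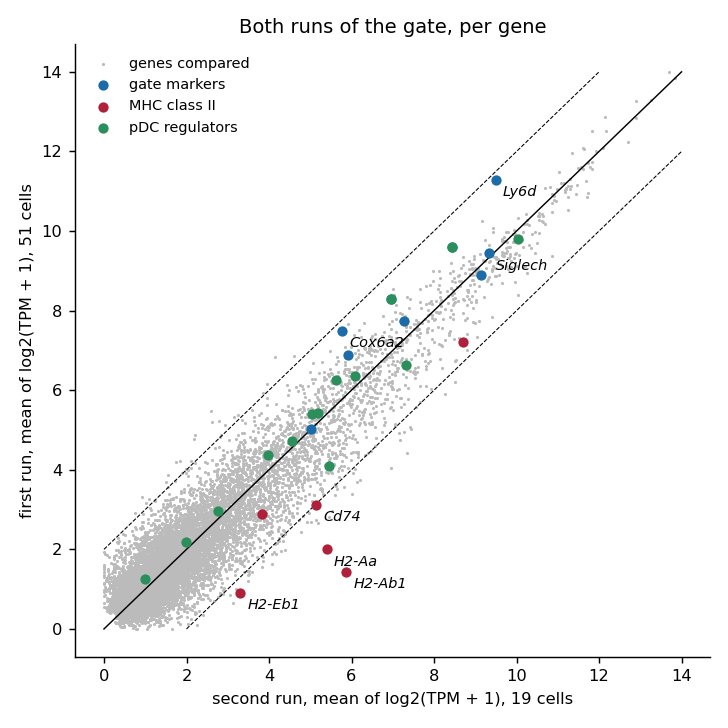
Mean log2(TPM + 1) of each gene in the first run (51 cells, y axis) against the second run (19 cells, x axis) of SiglecH+Ly6C- pre-DC, with gene lists coloured (Tcf4 and Runx2 as regulators) and all compared genes in grey. The solid line marks equal means and the broken lines a difference of 2. The 9 markers lie within the broken lines, and H2-Ab1 is at 1.43 in the first run and 5.86 in the second.

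MHC class II genes were the list that differed most, with 4 of 6 lower in the first run past the fold and a median difference of -2.20. H2-Ab1 differed by -4.43, H2-Aa by -3.40, H2-Eb1 by -2.39 and Cd74 by -2.01. For H2-Aa, Cd74 and Id2 the runs lay closer at 100 TPM than at 1 TPM, while H2-Ab1 and H2-DMa also differed at 100 TPM. H2-Ab1 was at 1 TPM or more in 31.4% of first-run cells and 100% of second-run cells, but at 100 TPM or more in 7.84% and 26.3%. Cd74 was at 1 TPM or more in 54.9% of first-run and 94.7% of second-run cells, and at 100 TPM or more in 21.6% and 21.1%. H2-DMa was at 100 TPM or more in 64.7% of first-run and 89.5% of second-run cells. Id2 had 39.2% and 84.2% at 1 TPM in the first and second run, and 21.6% and 10.5% at 100 TPM.

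Naaa and Plbd1, both lysosomal hydrolases found in cDC, and Lyz2 were likewise closer between runs at 100 TPM than at 1 TPM. Naaa was at 1 TPM or more in 29.4% of first-run and 68.4% of second-run cells, and at 100 TPM or more in 7.84% and 5.26%. Lyz2 was at 1 TPM or more in 9.8% of first-run and 52.6% of second-run cells, and at 100 TPM or more in 3.92% and 5.26%. These genes were abundant in SiglecH-Ly6C- pre-DC of the second run, where the level of H2-Ab1 was 12.11 and that of Id2 10.46. The part of the shared run in the low levels was not tested.

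**Figure D5:**
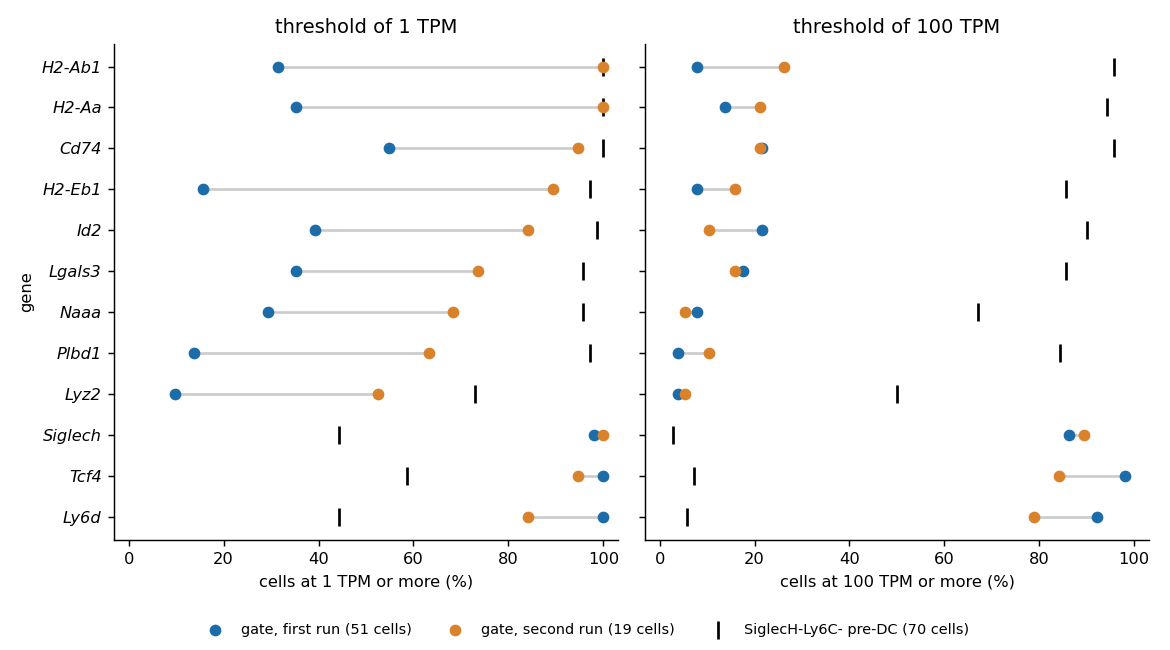
Share of cells at 1 TPM or more (left) and at 100 TPM or more (right) for 12 genes in the first run (51 cells) and the second run (19 cells) of SiglecH+Ly6C- pre-DC and, as black ticks, in SiglecH-Ly6C- pre-DC. H2-Ab1 is at 31.4% and 100% in the 2 runs on the left, and at 7.84% and 26.3% on the right.

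Outside the lists the largest excesses in the first run were Pafah1b3 (2.89), a subunit of a phospholipid hydrolase, Ube2d3 (2.70), a ubiquitin-conjugating enzyme, and Cdk2ap2 (2.68), and Ccnd3, a D-type cyclin, differed by 2.20. Ccnd3 was at 6.15 ± 3.25 in the first run and 3.95 ± 2.92 in the second. The largest deficits were Sat1 (-2.92), of polyamine breakdown, Rgs18 (-2.90), a regulator of G protein signalling, and Pdhb (-2.64), and Myd88 was also among them (-2.43). Sat1 was at 4.43 ± 4.04 in the first run and 7.35 ± 3.25 in the second, a gap smaller than the SD over first-run cells. Leaving out the 6 cells rich in Cd74 gave 132 genes past the fold between runs, in place of 82.

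SiglecH+Ly6C- cells had much more Ly6d, Sdc4 and Cox6a2 than their Ly6C-positive counterparts in the first run, while Tcf4, Runx2 and Cd7 differed by less than the fold. The comparison shows what goes with surface Ly6C among SiglecH-positive pre-DC. Of 9169 genes 115 (1.25%) were higher and 48 (0.524%) lower by 2 or more, and the median over all genes was 0.20. Of the 9 markers 6 were higher past the fold, with a list median of 2.11. Ly6d was at 11.29 ± 2.74 in 51 SiglecH+Ly6C- cells and 4.86 ± 4.23 in 45 SiglecH+Ly6C+ cells, a difference of 6.43, and at 100 TPM or more in 92.2% and 28.9% of them. Sdc4 was at 6.89 ± 3.39 and 1.23 ± 2.10 (5.67) and Cox6a2 at 7.49 ± 4.50 and 3.12 ± 3.82 (4.37). Bst2 (2.36), Siglech (2.11) and Blnk (2.02) were nearer the limit, while Tcf4 (0.85), Runx2 (0.68) and Cd7 (-0.44) were within it.

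None of 15 regulators was past the fold against SiglecH+Ly6C+ cells (median 0.40), with Ikzf1 highest (1.71) and Spi1 lowest (-1.26). With 1.25% of all genes higher and 0.524% lower, this count does not set the regulators apart. Early lymphoid genes had 4 of 9 higher and 0 lower, with Ptprcap at 5.21, Gimap6, a lymphocyte GTPase, at 3.15 and Il7r at 2.64 (median 1.75). Enzyme and transport genes had 5 of 13 higher and 0 lower (median 1.28), Smim5 (2.44), Tfrc (2.34) and Ctsl (2.29) following Cox6a2. Surface genes had 5 of 14 higher, among them Tspan13 (3.24), and 1 lower, Cd200r1 (-2.61). These lists share members with the gate markers, such as Sdc4 (surface), Cox6a2 (enzyme) and Blnk (early lymphoid), so their counts overlap. Unc93b1 (2.76) and Herpud1 (3.77) led their lists.

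Monocyte and some cDC genes were lower in SiglecH+Ly6C- cells than in SiglecH+Ly6C+ cells. Monocyte genes had 4 of 8 lower and 0 higher (median -2.26), namely Ccr2 (-4.48), the chemokine receptor of monocytes and pre-DC, Lgals3 (-4.25), Klf4 (-3.50) and Ms4a6c (-2.82). Of 10 cDC genes Cd209a (-4.53) and Clec9a (-2.90) were lower (median -0.54). S100a6, a calcium-binding protein of myeloid cells, had the largest deficit outside the sort proteins, at 4.26 ± 3.92 in SiglecH+Ly6C- cells and 8.92 ± 1.82 in SiglecH+Ly6C+ cells (-4.66). All 17 G2/M genes were below 0, 2 of them past the fold (Ccnb1 -2.49 and Cdk1 -2.10, median -1.14). Of 15 S phase genes 14 were above 0 (median 0.77), and 1 of them, Mcm5 (2.13), was past the fold.

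Against SiglecH-Ly6C- cells of the second run, the gate had most members of the marker, regulator, surface and enzyme lists higher, and most class II and cDC genes lower. SiglecH itself was a sort marker here. Of 9334 genes 345 (3.7%) were higher and 89 (0.954%) lower by 2 or more (median 0.26). All 9 markers were higher past the fold (median 5.61). Ly6d was at 9.49 ± 5.10 in 19 SiglecH+Ly6C- cells and 1.47 ± 2.44 in 70 SiglecH-Ly6C- cells (8.02), Cd7 at 9.15 ± 2.42 and 1.82 ± 3.09 (7.32), and Tcf4 at 8.43 ± 2.72 and 2.34 ± 2.47 (6.09).

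Of 15 regulators 9 were higher and 1 lower (median 2.82). Spib was at 5.12, Bcl11a at 4.02, Zeb2, a repressor that favours the pDC path, at 3.99, and Spi1 at -2.98. Surface genes had 11 of 14 higher and enzyme and transport genes 8 of 13, neither with a member lower past the fold, and Cd300c (5.56), Tex2 (5.84) and Tfrc (5.38) were among them. Sensing genes had none past the fold of those compared (median 0.11), which does not set them apart where 3.7% of all genes were higher and 0.954% lower. Of the class II list 6 of 7 were lower (median -6.24), with Cd74 at 5.14 ± 3.75 in SiglecH+Ly6C- cells and 11.86 ± 2.21 in SiglecH-Ly6C- cells (-6.73) and H2-DMa near equal (-0.20). Of 11 cDC genes 6 were lower (median -2.07), Id2 most, at 2.99 ± 2.79 in SiglecH+Ly6C- cells and 10.46 ± 2.95 in SiglecH-Ly6C- cells (-7.47).

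Against marrow pDC, which are B220 positive and come from other runs, the gate had 5 of 15 S phase genes higher, and 5 of 20 surface and 5 of 15 enzyme and transport genes lower. Of 9313 genes 345 (3.7%) were higher and 50 (0.537%) lower by 2 or more, and the median was 0.41. With median-of-ratios size factors 211 were higher and 99 lower, so the share higher was 68.1% in place of 87.3%, and the median 0.18. The pDC had fewer genes at or above 1 TPM, with medians of 4982 in the gate and 4398 in pDC, and more mitochondrial transcripts, with medians of 6.71% (highest 12.6%) and 9.38% (highest 58.2%). Their part in the result was not tested. The gate's second run alone gave 671 genes past the fold, in place of 395. Gate and run cannot be told apart in this comparison.

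None of 9 markers was higher past the fold and 2 were lower (median -0.15). Sdc4 was at 6.63 ± 3.52 in SiglecH+Ly6C- cells and 9.18 in pDC (-2.55), and Cox6a2 at 7.02 ± 4.52 and 9.60 (-2.58). Ly6d (-0.15), Tcf4 (-0.02), Runx2 (0.20) and Bst2 (0.19) differed by far less than the spread over cells. Of 14 regulators 1 was past the fold, Cbfa2t3, a corepressor, higher by 2.01, and Spib was lowest (-1.75). With 3.7% of all genes higher and 0.537% lower, this count does not set the regulators apart.

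Of 20 surface genes 5 were lower than in pDC and 0 higher (median -1.09). Ccr9 was at 2.20 ± 2.72 in SiglecH+Ly6C- cells and 7.65 ± 2.24 in pDC, the largest deficit of the named genes (-5.45), followed by Lair1, an inhibitory collagen receptor (-3.11), Sdc4, Cd4 (-2.50) and Klra17 (-2.30). Of 15 enzyme and transport genes 5 were lower and 0 higher (median -0.85), with Klk1 at 0.18 ± 1.09 in SiglecH+Ly6C- cells and 5.30 ± 4.63 in pDC (-5.12) and Pltp at -3.42. Class II genes had 4 of 6 lower (median -2.82), and Cd74 was at 3.67 ± 3.97 in SiglecH+Ly6C- cells and 7.90 ± 4.01 in pDC. The size depended on the run. Cd74 was at 3.12 in the first run and 5.14 in the second, and H2-Eb1 at 0.91 and 3.30, against 4.37 in pDC. H2-Ab1 was at 1.43 in the first run, below the 5.47 of pDC, but at 5.86 in the second, above it. With the second run alone only Cd74 of the 4 was lower past the fold. Early lymphoid genes had 0 of 10 past the fold (median 0.01), a count near the share over all genes (3.7% higher and 0.537% lower).

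Among the genes higher in the gate than in pDC were Stmn1, a tubulin-binding protein of dividing cells, at 9.33 ± 3.83 in SiglecH+Ly6C- cells and 4.82 ± 4.51 in pDC (4.52), and Vim, an intermediate filament protein, at 8.81 ± 2.55 and 4.36 ± 3.31 (4.44). Ranbp1, a nuclear transport factor, differed by 4.40. S phase genes had 5 of 15 higher (median 1.95), among them the helicase subunits Mcm3, Mcm4 and Mcm5, and G2/M genes had 0 of 16 past the fold (median 0.87). With 3.7% of all genes higher and 0.537% lower, the G2/M count does not set that list apart. Over all genes compared the median was 0.41, and 0.18 with median-of-ratios size factors. The part of depth, scaling and run in these differences was not tested.

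Relative to the mean of all 11 other gates 137 of 12660 genes (1.08%) were higher and 29 (0.229%) lower by 2 or more (median 0.07). All 9 markers were higher past the fold (median 3.92), from Blnk (2.80) to Ly6d (6.25), and 6 regulators were higher and 1 lower (median 1.29). Enzyme and transport genes had 8 higher (median 2.33). Granule genes had 4 of 8 lower (median -2.03) and monocyte genes 3 of 10 (median -0.98). The gate led in few genes, since pDC or pre-pro-B cells had more of most markers. Of the 9 markers only Runx2 was highest in it.

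Few genes were higher in both runs of the gate than in every other gate. Of 3090 genes that reached 1 TPM in 50% or more of the cells of both runs, 180 had the lower of the 2 run means above every other gate, 4 by more than 1 and 0 by more than 2. Named by the gap to the next gate, a choice made from these values and so only a description, 3 of the 4 were Gatad1 (1.44 above LMPP), a zinc finger protein, Tex2 (1.30 above pDC), a lipid-binding membrane protein, and Inpp4a (1.16 above SiglecH+Ly6C+ pre-DC), a phosphoinositide phosphatase, and the remaining one is not named here. Inpp4a was at 7.79 ± 2.25 in the first run and 8.22 ± 0.86 in the second, and at 100 TPM or more in 85.7% of all cells. Sp110, a nuclear body protein, followed (0.99 above cMoP), then Ifnar1, a chain of the type I interferon receptor (0.65), Herpud1 (0.64) and Ccnd1, a D-type cyclin (0.48). SDs over cells were larger than each gap but for Inpp4a in the second run.

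Whole profiles placed the gate nearest to SiglecH+Ly6C+ pre-DC, with a Spearman rho of 0.905 across 12660 genes of the gate means, then CDP (0.885), SiglecH-Ly6C- pre-DC (0.876) and pDC (0.853). With the first run alone CDP (0.874) stayed above SiglecH-Ly6C- pre-DC (0.861), and with the second alone they were at 0.842 and 0.847. SiglecH+Ly6C+ pre-DC were at 0.896 with the first run and 0.860 with the second. SiglecH+Ly6C+ and SiglecH-Ly6C- pre-DC each share a run with the gate, while CDP and pDC do not, and the gates differ in cell number. The part of run and cell number in this order was not tested. With fewer cells each, the 2 runs of the gate had 0.889 with each other.

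The 10 most uneven of 990 eligible genes were led by Cox6a2 and Ccl4. Ccl4, a chemokine, was at 100 TPM or more in 22 cells and below 1 TPM in 27, with a highest value of 11967 TPM. Cd69, an early activation antigen that retains lymphocytes in tissue, was at 100 TPM or more in 27 cells and below 1 TPM in 28, with a highest value of 4825 TPM. Hist1h2ap, a histone, and Rrm2, of nucleotide synthesis, were at 100 TPM or more in 22 and 26 cells. The other members were Rab11a and Napa, of membrane traffic, Bnip3l, of mitochondrial clearance, Tipin, of the replication fork, and Cops3, of the COP9 signalosome.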

How the data were processed

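Per the labels, 614 single cells of 12 sort gates were profiled. TPM for each gene symbol in each cell were deposited. Per the submitters' processing notes the authors used RSEM 1.2.19 and GRCm38, with the aligner and annotation not given in the sources used here. TPM hold no read counts, so no count model was used and depth is unknown. Groups came from the labels. Library numbers formed 2 runs of the gate, taken as possible batches. Differences are between means of log2(TPM + 1), with a pseudocount of 1, over genes that reached 1 TPM in 20% or more of the cells on either side; a fold change on this scale understates low genes. Exact Clopper-Pearson 95% intervals were put on shares, and 3 counts were taken as the limit behind a 0.

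Members and the 24 gene lists were chosen with earlier results of these data known. Some genes are in more than 1 list, gate markers among them, so counts of different lists overlap. Named genes are the gate markers, up to 4 list members at each end, the 20 genes leading in the gate, the 10 most uneven, and the 10 or 5 largest differences per direction for runs or gates, without sort proteins, among genes that reached 1 TPM in 50% or more of the cells of the higher side. Some genes that this rule names are not reported here. Doublets were not called; instead each gate was also analysed without its top 5% of cells by gene number. Coordinates are from GENCODE release 21 (GRCm38), which held 91.2% of symbols, and promoters from RefSeq (GRCm38.p6). The steps were tested on simulated data. Tools were matplotlib 3.10.9, scipy 1.17.1, pandas 2.3.3, numpy 2.4.6 and Python 3.11.15.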

Additional observations from a re-analysis of the deposited data

How the results depend on the processing

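In the order of the comparisons with SiglecH+Ly6C+ pre-DC, SiglecH-Ly6C- pre-DC, pDC, the mean of 11 gates and between runs, 163, 434, 395, 166 and 82 genes were past the fold. A pseudocount of 0.1 gave 586, 1149, 1197, 730 and 521, a pseudocount of 10 gave 34, 101, 54, 31 and 1, and the log2 of the mean TPM gave 875, 1320, 1568, 879 and 1124. The share of these that was higher was 55.9%, 66.3% and 72.2% in the first 3 with a pseudocount of 10 (70.6%, 79.5% and 87.3% as reported), and 46.4% against SiglecH-Ly6C- pre-DC with the log2 of the mean TPM, which also put the share higher between runs at 66.5% in place of 31.7%. The pDC comparison gave 671 with the second run alone. The run comparison gave 132 without the 6 cells rich in Cd74 and 126 with TPM under 100 set to 0, both chosen after seeing the data. The median marker count of 7 was 9 at 1 TPM and 3 at 1000 TPM. Against the mean of 11 gates the class II median of -1.15 was 1.12 with the log2 of the mean TPM and 0.59 with the second run alone; the cause was not tested. Of 54 recomputed gene counts 36 stayed within 1.5 times, and of 760 differences of single genes 749 moved by less than the SD over cells. Of 734 list medians 701 did so. The SD over cells was often above 2, so this limit is lenient. Among 39 recomputed correlations 13 counted as moved. Filters on low values and leaving out cells under 2000 genes (0 in the gate) moved no gene count by over 1.5 times. No paired analysis was possible because a gate is 1 sample and replicate numbers only name cells. TPM of single cells limit precision, since a level of 0 cannot be told from a transcript missed.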

Other observations

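Genes of the interferon response named here were low in SiglecH+Ly6C- pre-DC. Stat2, a transducer of interferon signals, was at 2.65 ± 2.79 (SD over 70 cells) and had its highest mean of the 12 gates here. Ifit1 reached at most 1.08 TPM in any of the 70 cells and Ifit3 at most 0.80 TPM, both antiviral genes induced by interferon. Ifitm3, a restriction factor of viral entry, was at 1.28 ± 3 (SD), the lowest mean of the 12 gates. Mx1, an antiviral GTPase, was at 1.37 in the first run and 3.50 in the second, the 1 interferon gene of 6 compared that was past the fold between runs (-2.13). Over all genes 0.582% were lower in the first run past the fold and 0.27% higher.

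Immediate-early genes, which are induced within minutes by many stimuli including tissue handling, were spread widely over the cells. Fos was at 6.40 ± 3.77, and 37 of 70 cells held 100 TPM or more. Egr1 was at 100 TPM or more in 16 cells with a median of 0.46 TPM, and Ier3 was listed at 0 in all 70. Dusp1, a phosphatase of that group, was at 2.68 ± 3.35, the lowest mean of the 12 gates. Of 9 genes compared between runs 1 was past the fold, Btg2, an inhibitor of proliferation, at 4.03 in the first run and 6.09 in the second (-2.06). Between runs 0.582% of all genes were lower and 0.27% higher, and a single gene of a short list says little. Relative to pDC 2 of 10 were lower, Btg2 (-2.27) and Jun (-2), and 0 were higher. Over all genes 0.537% were lower and 3.7% higher in that comparison. The mean of the list followed the genes detected per cell with a Spearman rho of 0.46 (0.38 in the first run and 0.72 in the second).

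Progenitor genes were sparse. Of 11 multipotency genes Gata2, Hlf and Mycn were listed at 0 in all 70 cells, and 1 reached 1 TPM in 50% or more of the cells.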
